A study of Mus musculus with 2 samples.

Results

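Members of the proteasome gene family were taken as the gene symbols that begin with Psm, followed by a letter from a to g, a number and at most 1 further letter. The rule gave 49 of the 40879 symbols in the deposited count tables, and it used no measured value. It covers the core particle with its immunoproteasome variants, the regulatory particle, the activators and the assembly chaperones. Of the 49 genes, 47 had at least 10 reads over both libraries. A level of 4, meaning log2(CPM + 1) of at least 4 or 15 CPM in 1 or both libraries, was reached by 45.

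The proteasome is the large protease that degrades proteins marked with ubiquitin. Its core particle is a barrel of stacked alpha and beta rings, in which only a few of the beta subunits are catalytic, and the regulatory particle docks on the barrel, unfolds the substrate with a ring of ATPases and removes the ubiquitin. In cells exposed to interferon gamma, and constantly in many leukocytes, alternative catalytic subunits replace the standard ones to form the immunoproteasome, whose cuts favor peptides that bind MHC class I molecules. ERAP1 acts on the same pathway one step later, trimming the amino-terminal end of such peptides in the endoplasmic reticulum after the TAP transporter has carried them in.

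RNA from the intestine of C57BL/6 mice was compared between wild type (WT) animals and animals heterozygous for a disrupted ERAP1 allele (ERAP1+/-), in which Cre recombinase deletes exons 6 and 7 and which derives from a clone of embryonic stem cells. The methods describe untreated control mice, 8 weeks old at the start and kept on regular water for 28 days, and they call the animals germ-free while housed under specific pathogen-free conditions. The Cre strain is not named in the sources used here. RNA of 3 mice per genotype was combined in equal amounts, so that each genotype is 1 library prepared from the 3' ends of polyadenylated transcripts, no difference below has a replicate check, and variation between mice cannot be told apart from genotype.

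The libraries held 8114826 (WT) and 8907515 (ERAP1+/-) reads on genes. CPM are read counts set to a common library size, after TMM scaling, which balances the libraries on the bulk of their genes, and log2 differences are on the log2(CPM + 1) scale, which understates the difference of low genes. Ratios are those of the scaled counts, ERAP1+/- over WT, with exact conditional 95% intervals that cover counting error only, since reads without molecular identifiers are not independent molecules. Erap1 had 229 and 2 reads, less in the second library than a single intact copy would be thought to give, and the 3' tags lie outside the deleted exons and so do not check the deletion. For this reason the second library is named by its label throughout. Markers of colonic epithelium were abundant in both libraries (9913 and 9276 CPM summed over 10 genes). However, 7 of the 10 were lower in the library labelled ERAP1+/-, each with a counting interval below 1. The other 3 were higher, 2 of them with an interval above 1, and the median log2 difference was -0.34. Among all 8013 genes that reached the level defined above, the interval lay below 1 for 32.4% and above 1 for 25.5%. Without the mucin gene Muc2 (1547 and 3541 CPM) the sums were 8366 and 5735 CPM. The WT library also held reads of 10 epidermis markers (2632 CPM, against 37.3 CPM) and of 10 skeletal muscle markers (1033 CPM, against 20.3 CPM). Xist had 1635 and 6451 reads and the Y-linked Ddx3y 319 and 29, and the sex of the pooled mice is not given in the sources used here, so that sex and genotype cannot be told apart. In bulk tissue, fewer cells of a type and less RNA per cell cannot be told apart either.

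Proteasome genes were close to even between the libraries. None of the 45 members past the level of 4 differed more than 2-fold, against 5.34% of the 8013 genes past that level, and none differed more than 1.5-fold, against 15.6% of those genes. No test was applied, since each genotype has 1 library. The log2 differences of the 45 members ran from -0.52 (Psmc4) to 0.44 (Psmg1), with quartiles at -0.14 and 0.090, whereas the quartiles of all 8013 genes were -0.28 and 0.21. Psmg1 passed that level only in the library labelled ERAP1+/-, where it was higher, and the highest difference among the 44 members past it in both libraries was 0.32 (Psmg4). The 5 highest differences were those of Psmg1, Psmg4, Psmg2, Psmd10 and Psmd12, and the 5 lowest those of Psmc4, Psme2, Psmd2, Psmc5 and Psmd14. Summed over the 49 genes, the libraries held 38428 and 44188 reads, or 4945 and 4750 CPM (ratio 0.961, 95% interval 0.947 to 0.974).

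Whether a single member lay above or below 1 depended in part on the scaling. With TMM scaling 22 of the 47 members with at least 10 reads were higher in the library labelled ERAP1+/- and 25 lower, whereas scaling by the total count gave 32 and 15. Between these scalings, the median of the 8013 genes shifted by 0.12 (log2). The counting interval lay above 1 for 9 of the 45 members (8 without Psmg1) and below 1 for 12, shares of 20.0% and 26.7%. Among all genes past that level these shares were 25.5% and 32.4%. In either direction the interval excluded 1 for 46.7% of the members and 57.9% of all genes. With scaling by the total count it lay above 1 for 15 of the 45 members and below 1 for 4, beside 37.7% and 22.5% of all genes. The intervals compare these libraries and not the genotypes. Shares and ratios between members within a library do not depend on the scaling, and the comparisons below lean on them.

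The order of the members was nearly the same in both libraries (Spearman's rho 0.985 over the 45 genes, which share both libraries, given as a description). In a 3' tag library a transcript gives reads from its end whatever its length, so that levels of different genes are given in CPM without division by length. Psma7, an alpha subunit, was the highest member with 425.8 and 421.0 CPM. It was followed by the ATPase Psmc1 (368.8 and 328.1 CPM) and by Psma2 (254.0 and 283.3 CPM). Lowest among the core subunits past the level of 4 was Psmb5, which carries the chymotrypsin-like activity, with 17.8 and 15.8 CPM. The proteins are built into the particle in equal numbers, while the tag levels of their genes spread over more than an order of magnitude in each library.

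**Figure D1:**
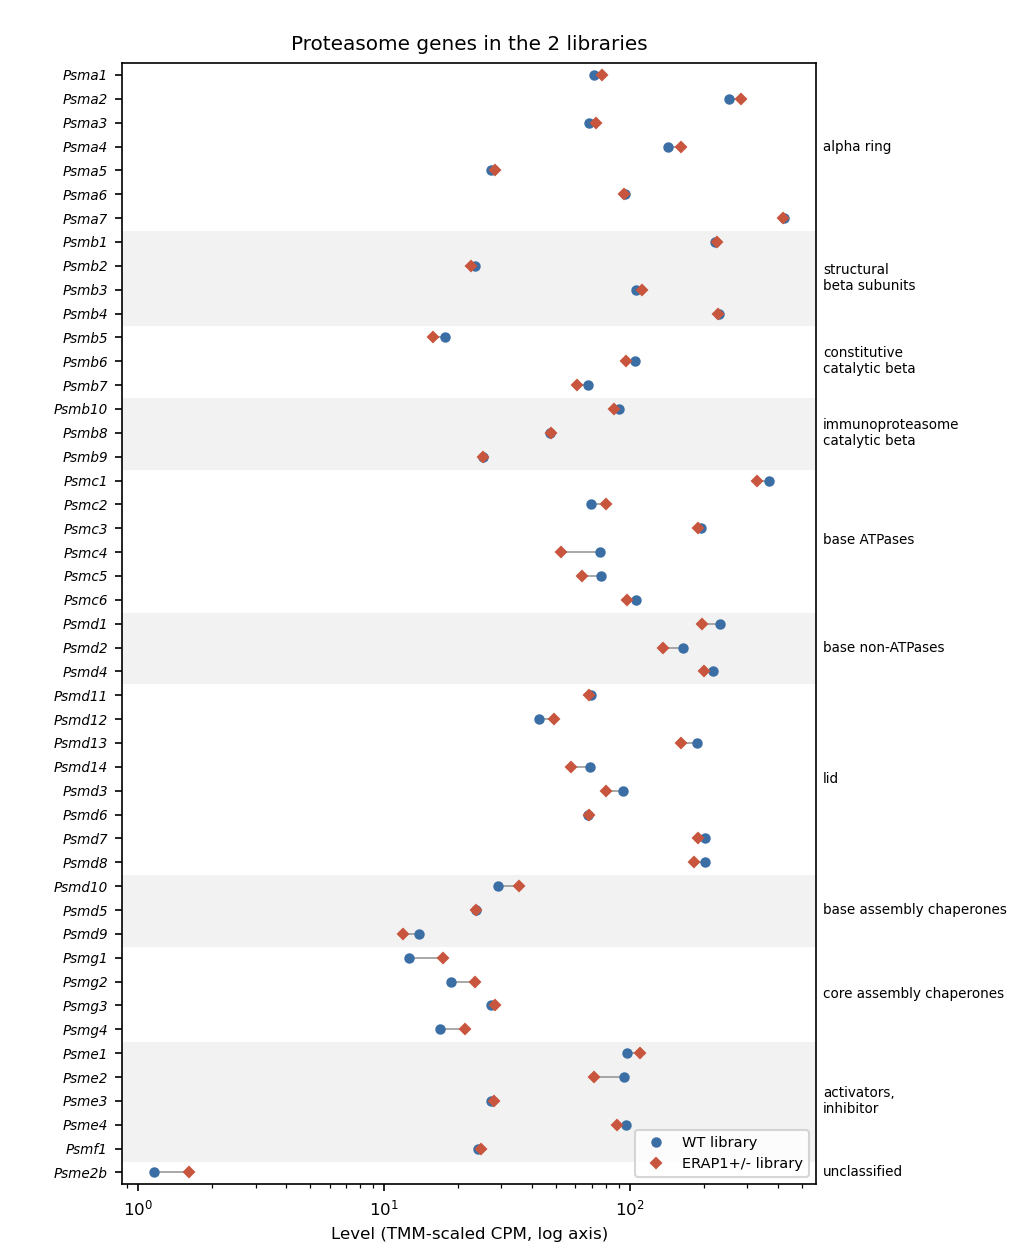
Level of each proteasome gene with at least 10 reads (TMM-scaled CPM, log axis) in the WT library (circles) and the library labelled ERAP1+/- (diamonds), grouped by role. The paired points lie close together across the range from Psme2b (1.16 and 1.61 CPM) to Psma7 (425.8 and 421.0 CPM), and the widest gaps are those of Psmc4, Psme2b, Psmg1 and Psme2.

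The alpha ring forms the gate of the barrel. Its 7 genes had 8436 and 10594 reads in all, and their median log2 difference was 0.090, beside -0.026 for all genes past the level of 4. Psma4 had 1112 and 1502 reads (ratio 1.13, 95% interval 1.04 to 1.22). Psma2 had 1974 and 2635 reads (ratio 1.12, 95% interval 1.05 to 1.18). These were the only alpha genes whose interval did not include 1 under TMM scaling. Psma6 (742 and 882 reads) and Psma7 (3309 and 3916 reads) were the lowest of the ring, with log2 differences of -0.010 and -0.017. Psma1, Psma3 and Psma5 lay in between, from 0.050 to 0.11. All 7 were higher when the total count was used. Among the reads of the 49 members, the alpha ring took 22.0% in the WT library (exact binomial 95% interval 21.5% to 22.4%) and 24.0% in the library labelled ERAP1+/- (23.6% to 24.4%).

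The structural beta subunits, which line the inner rings without cutting, were close to even. Psmb1 had 1719 and 2098 reads, Psmb2 183 and 211, Psmb3 821 and 1047, and Psmb4 1796 and 2121. Their ratios ran from 0.963 for Psmb2 to 1.07 for Psmb3, and every interval included 1. With scaling by the total count all 4 were higher.

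The 3 constitutive catalytic subunits were each slightly lower in the library labelled ERAP1+/-. Psmb5 had 138 and 147 reads. Psmb6, with the caspase-like activity, had 817 and 896 reads, and Psmb7, with the trypsin-like activity, had 525 and 568. Their ratios were 0.890, 0.916 and 0.904, and each counting interval included 1. Relative to the alpha ring within the same library, their summed reads were 0.175 in the WT library and 0.152 in the other, a ratio of these ratios of 0.867 (95% interval 0.803 to 0.936).

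The immunoproteasome subunits were level between the libraries. Psmb8, which takes the place of Psmb5, had 367 and 444 reads, or 47.2 and 47.7 CPM (ratio 1.01, 95% interval 0.878 to 1.16). Psmb9, which takes the place of Psmb6, had 196 and 236 reads, or 25.2 and 25.4 CPM (ratio 1.01, 95% interval 0.829 to 1.22). Psmb10, which takes the place of Psmb7, had 702 and 804 reads, or 90.3 and 86.4 CPM (ratio 0.957, 95% interval 0.863 to 1.06). At this depth differences within those intervals were not detectable.

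Since each immunosubunit replaces a given constitutive subunit, the share of immunosubunit reads within a pair is a measure that needs no scaling. Psmb8 took 72.7% of the reads of its pair in the WT library (95% interval 68.6% to 76.5%) and 75.1% in the library labelled ERAP1+/- (71.4% to 78.6%). Psmb9 took 19.3% (17.0% to 21.9%) and 20.8% (18.5% to 23.3%). Psmb10 took 57.2% (54.4% to 60.0%) and 58.6% (55.9% to 61.2%). In all pairs the share was higher in the library labelled ERAP1+/- and the intervals overlapped. Summed over the pairs it was 46.1% and 47.9%, an odds ratio of 1.08 (95% interval 0.971 to 1.196). The pairs differed from each other far more than the libraries did, with Psmb8 the larger partner of its pair and Psmb9 the smaller partner in both. Against the alpha ring the immunosubunits went the other way, with an odds ratio of 0.934 (95% interval 0.861 to 1.01).

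**Figure D2:**
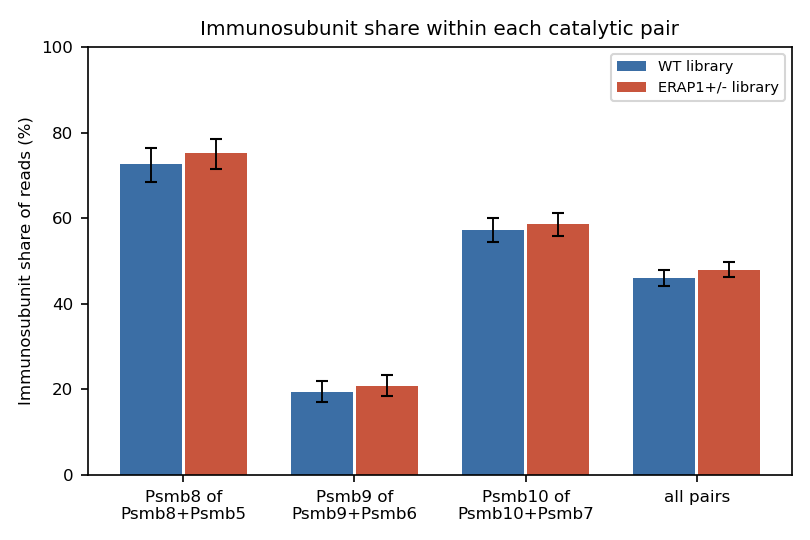
Share of reads (percent) that the immunosubunit took within each catalytic pair and over all pairs, in the WT library and the library labelled ERAP1+/-. Bars start at 0 and error bars are exact binomial 95% intervals, which overlap between the libraries for each pair and for the sum (46.1% and 47.9%).

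Leukocyte markers were not level between the same libraries. Ptprc, which encodes the CD45 antigen of leukocytes, had 109 and 244 reads. Of the 14 leukocyte markers listed, 9 had at least 10 reads, of which 6 were higher and 3 lower in the library labelled ERAP1+/- (median log2 difference 0.64). The summed level of the 14 markers was 110 and 162 CPM, and they did not move as one. Of the 6 that were higher, Csf1r had 287 and 539 reads, Lyz2 146 and 296, S100a8 49 and 165 and Itgax 16 and 46. Of the 3 that were lower, Itgam had 142 and 99 reads and Adgre1 60 and 64 (ratio 0.891). Among the T cell genes, Cd3e had 0 and 8 reads, Cd4 21 and 15 and Cd8a 5 and 3, and of the lymphocyte genes Nkg7 had 6 and 2 and Ncr1 2 and 0. The ratio of Ptprc to the summed immunosubunits was 0.0862 in the WT library and 0.164 in the other (ratio of ratios 1.91, 95% interval 1.496 to 2.44). The 6 plasma cell markers summed to 256 and 517 CPM. The part of leukocyte content in the level of the immunosubunits was not tested.

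Psmb8 and Psmb9 lie in the MHC region of chromosome 17 next to the genes of the TAP transporter. In the GENCODE M21 annotation of GRCm38, Psmb9 runs on the minus strand from 34181987 to 34187764, Tap1 on the plus strand from 34187553 to 34197225, Psmb8 on the plus strand from 34197721 to 34201454, and Tap2 on the plus strand from 34203527 to 34216321. Psmb9 and Tap1 stand head to head, and the RefSeq promoter windows of both genes (250 bases before the start and 50 from it) share 275 bases. The shared stretch is shown because the 2 genes that begin in it differed unequally between the libraries. It reads on the plus strand, in GRCm38.p6, chr17:34187306-34187580, with the CCAAT box in capitals:
Psmb9 and Tap1: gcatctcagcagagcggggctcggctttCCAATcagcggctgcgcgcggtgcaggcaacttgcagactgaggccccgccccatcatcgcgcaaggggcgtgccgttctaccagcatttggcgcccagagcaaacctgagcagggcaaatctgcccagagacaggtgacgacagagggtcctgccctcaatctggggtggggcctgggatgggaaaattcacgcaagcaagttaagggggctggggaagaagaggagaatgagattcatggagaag

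Tap1 had 133 and 110 reads (ratio 0.691, 95% interval 0.532 to 0.896), whereas Psmb9 from the other side of the same stretch was even. Within a library, Tap1 had 0.679 reads per read of Psmb9 in WT and 0.466 in the library labelled ERAP1+/-, a ratio of 0.687 (95% interval 0.495 to 0.954). The neighbouring pair gave no such difference beyond counting error, with Tap2 at 135 and 194 reads and a ratio to Psmb8 of 0.368 and 0.437 (ratio of ratios 1.19, 95% interval 0.909 to 1.55). In the RefSeq window of Psmb8 (plus strand, chr17:34198055-34198204, the part from position -140 to 10 around the start), the palindrome TTCNNNGAA of the gamma-activated site occurs once, in capitals:
Psmb8: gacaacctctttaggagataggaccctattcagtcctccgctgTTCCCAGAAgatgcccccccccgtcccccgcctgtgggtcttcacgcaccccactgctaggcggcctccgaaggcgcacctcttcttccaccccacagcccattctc

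Several interferon-regulated genes of the class I pathway were lower in the library labelled ERAP1+/- while the immunosubunits were not. In the same libraries 7 of 10 colonic epithelium markers were lower too, among them Epcam (ratio 0.801), Cdh1 (0.741) and Slc26a3 (0.660). The other 3 were higher, Muc2 (2.29), Cdx2 (1.67) and Lgr5 (1.55, with an interval that included 1). The part of epithelial content in the class I values was not tested. Of the 10 genes listed, 9 passed the level of 4, and the counting interval lay below 1 for 6 of them and above 1 for 1, beside 32.4% and 25.5% of all genes. Of these 6, Tap1 passed that level only in the WT library, where it was higher. None of the 10 genes passed 2-fold. The heavy chain genes H2-K1 (9290 and 8216 reads, ratio 0.739) and H2-D1 (5848 and 4633 reads, ratio 0.662) were lower, as were the peptide-loading chaperone gene Tapbp (2360 and 1873 reads, ratio 0.663) and the transcription factor gene Irf1 (1933 and 1652 reads, ratio 0.714). The lowest log2 difference of the list was that of H2-D1 (-0.59). The highest was that of Tap2 (0.25), whose interval included 1. B2m, the light chain of class I molecules, was the gene above 1, with 7230 and 10132 reads (ratio 1.17, 95% interval 1.14 to 1.21). Per read of the 3 immunosubunits, the libraries held 11.97 and 8.66 reads of H2-K1 and H2-D1 together (ratio of ratios 0.724, 95% interval 0.668 to 0.783).

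**Figure D3:**
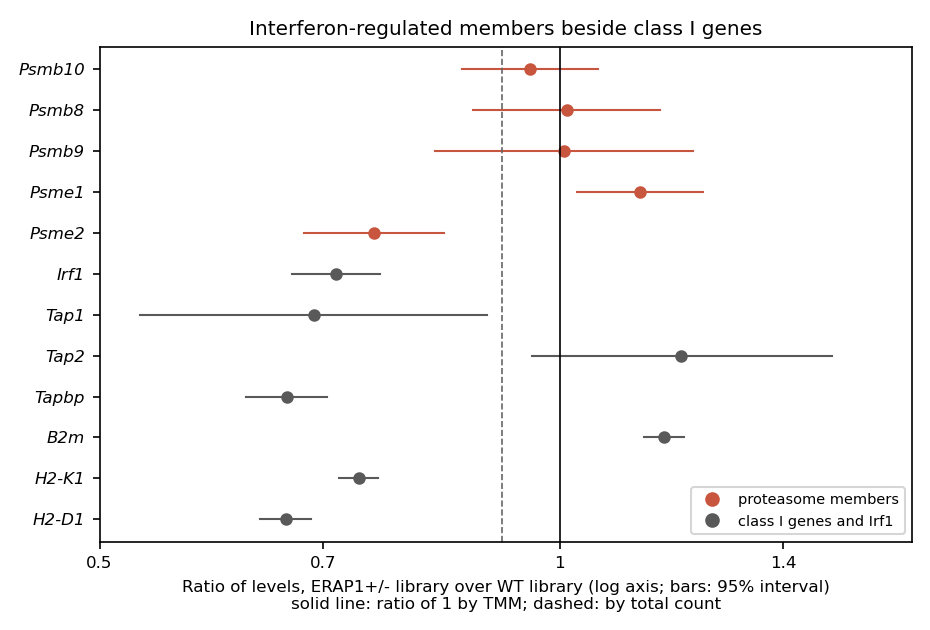
Ratio of levels between the libraries (log axis, points, with 95% counting intervals as bars) for the interferon-regulated proteasome members and for the class I genes and Irf1 named in the text. The solid line is a ratio of 1 with TMM scaling and the dashed line with total count scaling. Psmb8, Psmb9 and Psmb10 lie at 1.01, 1.01 and 0.957, while Tapbp, H2-D1 and Psme2 lie at 0.663, 0.662 and 0.756.

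The activators bind the ends of the barrel in place of the regulatory particle. Psme1 and Psme2 encode the partners of an interferon-induced ring that opens the gate, and they lay on opposite sides of 1. Psme1 had 755 and 1020 reads, or 97.2 and 109.6 CPM (ratio 1.13, 95% interval 1.03 to 1.24). Psme2 had 738 and 668 reads, or 94.98 and 71.8 CPM (ratio 0.756, 95% interval 0.680 to 0.841). In the WT library the partners were nearly even, with 0.977 reads of Psme2 per read of Psme1, and in the library labelled ERAP1+/- there were 0.655 (ratio of ratios 0.670, 95% interval 0.581 to 0.773). Psme2b is a near-identical copy of Psme2 (9 and 15 reads), between which the counting could split reads, and with both added together the ratio of ratios was 0.677. The direction of each partner was the same under both scalings.

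Psme1 (plus strand, 55578123 to 55581529) and Psme2 (minus strand, 55587441 to 55591113) lie tail to tail on chromosome 14 of GRCm38, 5912 bases apart. The windows around their RefSeq starts, from 100 bases before to 50 after, are shown because the pair diverged. The interferon-stimulated response element, taken as TTTC, any 2 bases and TTTC, occurs once in that of Psme1 (capitals) and not in that of Psme2. The first is chr14:55578394-55578543 on the plus strand and the second chr14:55591052-55591201 on the minus strand of GRCm38.p6:
Psme1: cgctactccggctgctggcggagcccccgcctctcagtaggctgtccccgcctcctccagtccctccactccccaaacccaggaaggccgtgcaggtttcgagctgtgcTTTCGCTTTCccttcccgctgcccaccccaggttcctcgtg
Psme2: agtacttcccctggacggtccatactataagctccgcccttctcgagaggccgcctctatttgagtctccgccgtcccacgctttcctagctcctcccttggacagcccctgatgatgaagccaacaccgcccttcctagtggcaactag

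The other regulators of the barrel were even within counting error. Psme3, the nuclear activator, had 211 and 261 reads (ratio 1.03). Psme4, the large activator of a single chain, had 753 and 823 reads (ratio 0.913, 95% interval 0.826 to 1.01). Psmf1, an inhibitor of the core in vitro, had 188 and 230 reads (ratio 1.02).

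In the regulatory particle, more genes were lower than higher. Of its 17 genes, 14 were lower in the library labelled ERAP1+/- with TMM scaling and 9 with scaling by the total count. The counting interval lay below 1 for 11 genes and above 1 for 2, beside 32.4% and 25.5% of all genes. Total counts gave 3 and 2, beside 22.5% and 37.7% of all genes at that scaling. The members of the particle held 18968 and 20498 reads, and the core held 15700 and 19166. Within a library there were thus 0.828 core reads per read of the regulatory particle in WT and 0.935 in the library labelled ERAP1+/-, a ratio of 1.13 (95% interval 1.097 to 1.16) that is free of the scaling.

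The 6 ATPases of the base, which thread the substrate into the barrel, did not move as a unit. Psmc4 had 589 and 490 reads, or 75.8 and 52.7 CPM, and the lowest ratio of all members (0.695, 95% interval 0.615 to 0.785). Relative to the other ATPase genes, its reads were 0.0930 and 0.0694 (ratio of ratios 0.746, 95% interval 0.657 to 0.846). Psmc5 (594 reads in both libraries, ratio 0.835) and Psmc1 (2866 and 3052 reads, ratio 0.890) were lower too, and their intervals included 1 with scaling by the total count. Psmc2 was the exception, with 539 and 744 reads and a ratio of 1.15 (95% interval 1.03 to 1.29), above 1 under both scalings. Psmc3 (1512 and 1769 reads) and Psmc6 (823 and 906 reads) had intervals that included 1.

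The large scaffold subunits of the base were lower under both scalings. Psmd1 had 1805 and 1832 reads (ratio 0.848, 95% interval 0.794 to 0.905), and Psmd2 had 1278 and 1274 (ratio 0.833, 95% interval 0.770 to 0.901). Psmd4, a receptor for ubiquitin chains, had 1690 and 1862 reads, and its ratio of 0.920 went to the other side of 1 with scaling by the total count. The 3 genes took 12.4% of the reads of all members in the WT library and 11.2% in the library labelled ERAP1+/- (odds ratio 0.893, 95% interval 0.856 to 0.932).

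The lid holds the deubiquitinase Psmd14, which cuts the ubiquitin chain from the substrate. It had 535 and 538 reads (ratio 0.840, 95% interval 0.744 to 0.949). Psmd3 (726 and 741 reads, ratio 0.853) and Psmd13 (1461 and 1505 reads, ratio 0.860) were similar, and Psmd8 (1576 and 1704 reads, ratio 0.903) and Psmd7 (1578 and 1756 reads, ratio 0.930) nearer to 1. Psmd12 stood on the other side with 332 and 459 reads (ratio 1.15, 95% interval 1.00 to 1.33). Psmd6 (525 and 636 reads) and Psmd11 (539 and 636 reads) were even. With scaling by the total count, no lid gene had an interval below 1, beside 22.5% of all genes.

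**Figure D4:**
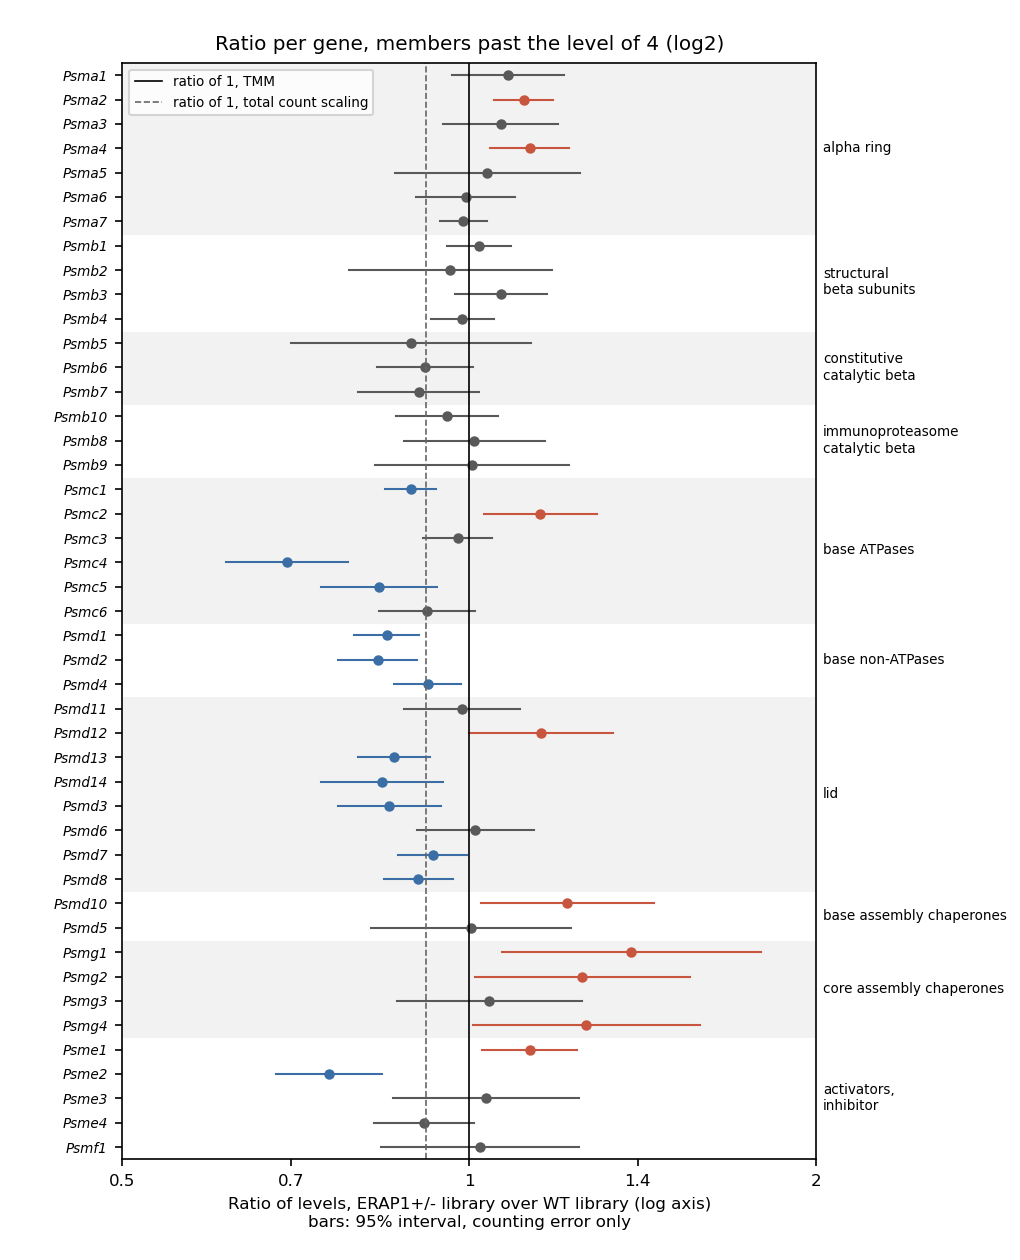
Ratio of levels between the libraries for the 45 members past the level of 4 (log axis, points, with 95% counting intervals as bars), grouped by role. Red marks an interval above 1 (9 genes), blue an interval below 1 (12 genes) and grey an interval that includes 1, with TMM scaling, and the dashed line shows where 1 falls with total count scaling. Most blue points are genes of the base and the lid.

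Core and regulatory genes also differed in transcript length, and the libraries differed in tissue markers. The longest protein-coding transcript had a median length of 1183 bases for the core genes and 1819 for the regulatory genes. Over the 7656 genes past the level of 4 with a length, the median log2 difference was 0.048 for the shortest (up to 2406 bases), -0.040 for the middle group and -0.071 for the longest (above 4302 bases), in groups of equal size. The medians of the core and of the regulatory genes both fall in the shortest group. Smooth muscle markers summed to 8391 and 4313 CPM, beside the epidermis and skeletal muscle markers given above. The part of these in the ratio of core to regulatory reads was not tested.

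Of all role groups of members, the core assembly chaperones had the highest median difference. Pomp, an assembly factor outside the name rule, differed in the other direction and is given below. Psmg1 to Psmg4 encode the chaperones that pair up to build the alpha ring and are not part of the finished protease. Psmg1 had 98 and 162 reads, or 12.6 and 17.4 CPM (ratio 1.38, 95% interval 1.07 to 1.79). Psmg4 had 131 and 198 reads, or 16.9 and 21.3 CPM (ratio 1.26, 95% interval 1.01 to 1.59). Psmg2 had 146 and 219 reads, or 18.8 and 23.5 CPM (ratio 1.25, 95% interval 1.01 to 1.56). All 4 lay above 1 under both scalings, and only the interval of Psmg3 (212 and 264 reads, ratio 1.04, 95% interval 0.865 to 1.25) included it, beside a share of intervals above 1 over all genes of 25.5% with TMM and 37.7% by total counts. Their median log2 difference was 0.31. The 4 genes took 1.53% of the reads of all members in the WT library (95% interval 1.41% to 1.66%) and 1.91% in the library labelled ERAP1+/- (1.78% to 2.04%), an odds ratio of 1.25 (95% interval 1.13 to 1.397), and with Psmg1 left out of the members it was 1.22 (95% interval 1.08 to 1.37). These are low genes, and the lower ends of the intervals of Psmg2 and Psmg4 are close to 1.

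**Figure D5:**
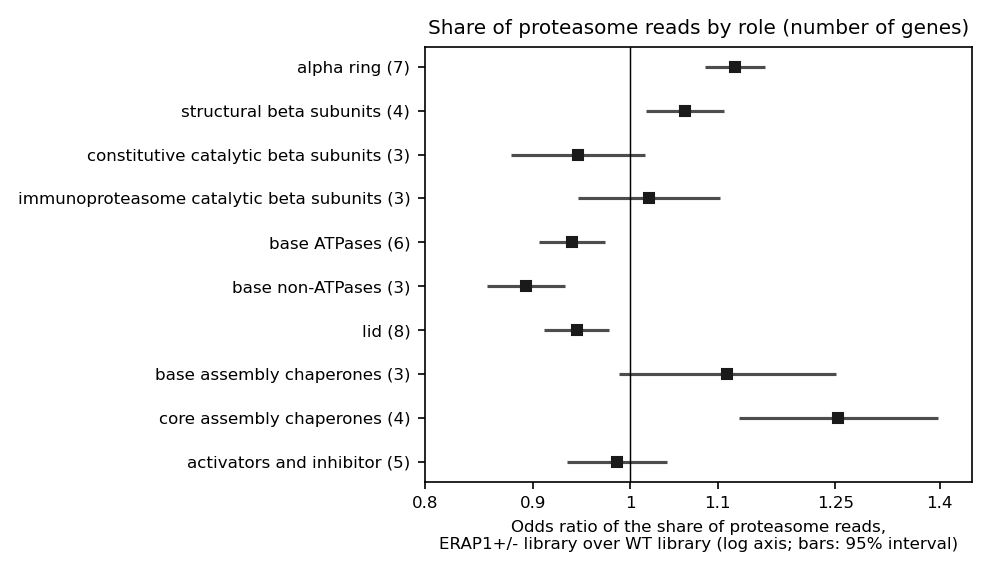
Odds ratio of the share of proteasome reads taken by each role group (number of genes in parentheses), library labelled ERAP1+/- over WT (log axis), with exact 95% counting intervals as bars. The share was highest relative to WT for the core assembly chaperones (1.25) and lowest for the non-ATPase subunits of the base (0.893), and the values do not depend on the scaling of the libraries.

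The promoters of Psmg1 and Psmg4 are shown because their intervals lay above 1, with that of Psmg3, whose interval included 1, for comparison. The windows run from 100 bases before to 50 after the RefSeq start in GRCm38.p6, for Psmg1 at chr16:95990911-95991060 on the minus strand, for Psmg3 at chr5:139826845-139826994 on the minus strand and for Psmg4 at chr13:34162864-34163013 on the plus strand. Capitals mark the element of nuclear respiratory factor, NRF1 (GCGCA, any base, GCGC) in Psmg1, and in Psmg4 first the antioxidant response type TGAGNNNGC and then the interferon-stimulated response element, both on the opposite strand. Psmg3 holds none of these letters in this window:
Psmg1: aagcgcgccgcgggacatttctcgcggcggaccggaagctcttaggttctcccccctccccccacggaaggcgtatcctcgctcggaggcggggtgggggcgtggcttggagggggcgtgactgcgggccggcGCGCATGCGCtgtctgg
Psmg3: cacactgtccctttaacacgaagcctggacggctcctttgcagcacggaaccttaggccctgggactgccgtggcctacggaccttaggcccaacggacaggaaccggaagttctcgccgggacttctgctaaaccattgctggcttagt
Psmg4: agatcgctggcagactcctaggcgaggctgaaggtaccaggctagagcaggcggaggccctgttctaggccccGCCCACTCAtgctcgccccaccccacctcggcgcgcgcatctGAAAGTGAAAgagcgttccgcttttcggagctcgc

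Pomp, the maturation factor that joins the beta rings and is itself degraded by the new particle, differed in the other direction. It had 3425 and 3315 reads (ratio 0.808, 95% interval 0.771 to 0.848). The libraries held 0.171 and 0.254 reads of Psmg1 to Psmg4 per read of Pomp (ratio of ratios 1.48, 95% interval 1.32 to 1.67). The assembly factors of the barrel thus differed among themselves by more than counting error.

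The chaperones of the base were mixed. Psmd10, known as gankyrin, had 226 and 329 reads, or 29.1 and 35.4 CPM (ratio 1.22, 95% interval 1.02 to 1.447), and it is the only member on the X chromosome, for which the values of Xist given above apply. The part of sex in its difference was not tested. Psmd5 had 184 and 221 reads (ratio 1.00). Psmd9 had 108 and 111 reads, stayed below the level of 4 in both libraries and had a ratio of 0.859 (95% interval 0.653 to 1.13).

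Members restricted to other tissues were at or near 0. Psmb11, the catalytic subunit of the thymus cortex, had no read in either library, which allows up to 3 reads or 0.386 and 0.322 CPM. Psma8, the alpha subunit of the testis, had 1 and 3 reads. Psme2b had 1.16 and 1.61 CPM. Another gene overlaps the last 500 bases of 9 members in GENCODE M21, on the same strand for Psmd1, Psmg3 and Psme2b. Of the partners on the opposite strand, Nek6 (Psmb7) had 183 and 233 reads, Slc39a13 (Psmc3) 61 and 138, Emc9 (Psme1) 50 and 29 and 3110056K07Rik (Psma3) 21 and 13. The kit keeps the strand, but whether the counting used it is not given in the sources used here, so values of these 9 members may hold reads of the partner.

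Genes that work with the proteasome but carry other names were listed as well, and more of them were lower than higher. Of the 25 genes, 16 were lower and 9 higher in the library labelled ERAP1+/-, or 15 and 10 by total counts, and their median log2 difference was -0.18. None passed 2-fold. Of the 23 past the level of 4, the interval lay below 1 for 12 and above 1 for 6, beside 32.4% and 25.5% of all genes. Of these 6, Ubqln2 passed that level only in the library labelled ERAP1+/-, where it was higher. The lowest was Zfand2a, a stress-induced cofactor, with 83 and 56 reads (log2 difference -0.73), below the level of 4. The highest was Ubqln2, a shuttle that carries ubiquitinated proteins to the proteasome, with 105 and 177 reads (log2 difference 0.46). Ubqln2 lies on the X chromosome, for which the values of Xist given above apply, and the part of sex in its difference was not tested.

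Shuttle and receptor genes did not move as a group. Ubqln4 (215 and 166 reads, ratio 0.645) was lower, Rad23b (1071 and 1142 reads, ratio 0.891) and Ubqln1 (794 and 788 reads, ratio 0.829) less so, and Ubqln2 was higher (ratio 1.41). Adrm1, a receptor of the regulatory particle, had 247 and 237 reads (ratio 0.801), and the deubiquitinase Usp14, which binds the same particle, had 325 and 463 (ratio 1.19, 95% interval 1.03 to 1.38). Sem1, the smallest subunit of the lid, had 1364 and 1834 reads (ratio 1.12), higher while most of the lid genes above were lower.

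Among the listed genes that encode ubiquitin, the polyubiquitin gene Ubb had 4449 and 4453 reads (ratio 0.836). Rps27a, which fuses ubiquitin to a ribosomal protein, had 3266 and 4527 reads (ratio 1.16) and lay on the other side of 1. Nfe2l1, the transcription factor known to raise proteasome genes when the protease is blocked, had 804 and 800 reads (ratio 0.831, 95% interval 0.753 to 0.918). Its protease Ddi2 had only 4 and 8 reads.

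Promoter windows from RefSeq were available for 41 of the 49 members (44 windows) and were searched on both strands for letters of known factor motifs. The antioxidant response type TGAGNNNGC occurred in 29.5% of the member windows, against 17.6% of all 32851 windows, and the type TGACNNNGC in 13.6% against 12.4%. Factors of the NFE2L family bind such elements. The element of nuclear respiratory factor occurred in 15.9% against 4.60%, in the windows of Psma2, Psma3, Psma4, Psmc4, Psmc5, Psmd14 and Psmg1. The genes that held it lay on both sides of 1, with Psma4 at 1.13 and Psmc4 at 0.695. The interferon-stimulated element was found in 11.4% against 3.44% (Psmb3, Psmd4, Psmd9, Psme1 and Psmg4), the gamma-activated palindrome in 6.82% against 8.30%, and CCAAT in 31.8% against 37.4%. A match of letters is a description, and whether a factor binds there was not tested.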

How the data were processed

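RNA-seq counts of 1 WT and 1 ERAP1+/- library of mouse intestine, grouped by the genotype label, were used. As deposited by the authors, each table gives raw counts for every gene symbol, not normalized. The methods name bbduk for trimming and then both STAR with HTSeq-count and Bowtie2 with RSEM on GRCm38, with no versions given in the sources used here, and which of them made the deposited counts is not stated.

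Library sizes were adjusted by TMM over all symbols (edgeR 4.0.16, R 4.3.3) and turned into CPM. A level of 4 is log2(CPM + 1) of at least 4, or 15 CPM. With 1 library per genotype no test of the quasi-likelihood kind can be fitted and no p-value is given. Intervals of ratios (conditional), shares (Clopper-Pearson) and odds ratios are exact, at 95% (scipy 1.17.1), and cover counting error only. The ratio intervals and the 2-fold rule were tested on simulated counts. Genes named are all members by role, the 5 highest and 5 lowest differences, and, in 2 further lists, genes past 2-fold and the highest and lowest; further genes of those lists were named after their values were seen. Some listed genes are counted but not reported here by name. The members and lists were chosen with earlier results of these data known. Coordinates are from GENCODE M21, not the release the methods name, and promoter windows from RefSeq (GRCm38.p6), matched by symbol. The planned comparison of protein sequences was not made, since no protein table was used here. Alternatives were DESeq2 1.42.0 size factors, total count, other filters, folds and pseudocounts, and thinning.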

Additional observations from a re-analysis of the deposited data

How the results depend on the processing

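No paired analysis was possible because the design holds a single library of either genotype. No member passed 2-fold with any scaling, with a pseudocount of 0.1, with 10 reads in 1 library, with no filter, with thinning of the larger library, or at 1.5-fold or 4-fold, while 21 members (46.7% of 45) had a counting interval that excluded 1, beside 57.9% of all genes. Scaling by the total count moved all values up and was the only scaling to move a median beyond counting error: to 0.11 over the members, 0.21 for the alpha ring, 0.13 for the structural beta and for the immunoproteasome subunits, -0.021 for the constitutive catalytic subunits, -0.020 for the ATPases, -0.11 for the other base subunits, -0.0010 for the lid, 0.15 for the activators with the inhibitor, -0.063 for the other proteasome factors and -0.33 for the class I genes. Thinning turned the sign of medians near 0, to -0.0079 for the immunoproteasome subunits and -0.014 for the activators. The total count changed the sign of 10 of the 47 members and moved 13 by more than their interval. DESeq2 size factors, TMM without mitochondrial and ribosomal RNA or without the epidermis and skeletal muscle lists, a pseudocount of 0.1 and thinning moved none of the 83 genes recomputed beyond it.

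The immunosubunit share differed by pair: 72.7% and 75.1% (WT, then the library labelled ERAP1+/-) for Psmb8, 19.3% and 20.8% for Psmb9, 57.2% and 58.6% for Psmb10, 37.1% and 39.5% without the Psmb10 pair, and 13.0% and 12.3% against the alpha ring, where the odds ratio was 0.934. The thinning of the role groups and single genes and the chaperone share without Psmg1 (1.22) or Psma7 were chosen after seeing the data. Depth limits the low members, such as Psmg1 to Psmg4 with 98 to 264 reads per gene and library.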

Other observations

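The 49 members lie on 16 chromosomes, with 9 on chromosome 11 and 6 each on chromosomes 2 and 14. Of the members on chromosome 13, which also carries Erap1 (74639568 to 74693201 in GRCm38), Psma2 lies at 14613240 to 14674236 with a ratio of 1.12, and Psmg4 at 34162964 to 34178173 with a ratio of 1.26. Psmb5 and Psmb11 stand head to head on chromosome 14, 3411 bases apart, and Psmb5 had 138 and 147 reads where Psmb11 had none.

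Across the 45 members past the level of 4, the log2 difference had a Spearman's rho of -0.20 with transcript length and -0.23 with GC content, and across the 7656 genes with a length -0.12 and -0.098. The genes of a library share its depth and base composition, and these values are given as a description.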
